A study of Mus musculus with 2 samples.

Results

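Bcl2, Bcl2a1b, Bcl2a1d, Bcl2l11 and Pim2 are 5 cell survival genes among the 2000 genes in the expression files of 2 single-cell libraries of mouse spleen T cells. They were taken by name, as 4 genes of the BCL-2 family and 1 survival kinase gene, and all 5 were found in both libraries. Donor spleen and bone marrow cells came from WT C57BL/6 mice and were transplanted into lethally irradiated WT BALB/C mice, so that donor T cells met the tissues of another strain. The recipients were given an anti-IL-2 antibody or Tacrolimus from day 0 to day 6, and donor cells of the spleen were profiled on day 6 with a droplet-based 5′ kit. There was 1 library for each treatment and 0 untreated libraries, so treatment and library are the same split and no difference between them has a replicate check. The labels do not give the age of the mice or whether cells of several recipients were pooled.

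BCL-2 family proteins set whether a T cell undergoes mitochondrial apoptosis. The anti-apoptotic members, BCL-2 and the A1 proteins, bind and hold in check BH3-only proteins such as BIM, which otherwise activate the pore-forming members at the mitochondrial membrane, and BIM is known for its part in the death of T cells after cytokine withdrawal. PIM2 is a constitutively active serine/threonine kinase that is induced by cytokine signals and favours growth and survival. Tacrolimus inhibits calcineurin, and with it the NFAT factors that antigen receptor signals activate, while IL-2 signals through STAT5.

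In GRCm38 (GENCODE M21) the protein-coding gene Bcl2 lies on the minus strand of chromosome 1 from 106538178 to 106714274, and Bcl2l11, which encodes BIM, on the plus strand of chromosome 2 from 128126038 to 128162547. The A1 genes Bcl2a1d (minus strand, 88723285 to 88731914) and Bcl2a1b (plus strand, 89199209 to 89207827) both lie on chromosome 9. Pim2 lies on the plus strand of chromosome X from 7878262 to 7883432. Bcl2 overlaps the annotated antisense gene D630008O14Rik, and Mir3473f and Gm37053 on its own strand, and Bcl2a1d the antisense gene Gm10634, while Bcl2a1b overlaps Gm29094 on its own strand. These overlapping genes were not analysed here, and the sources used here do not say how reads on each strand were counted, so reads of these pairs cannot be told apart here.

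The bases just upstream of the annotated starts of Bcl2, Pim2 and Bcl2l11, the members whose detection varied most in the results, are shown from RefSeq (GRCm38.p6), 5′ to 3′ on the strand of the gene. The windows are chr1:106714291-106714540 (minus strand), chrX:7878056-7878261 (plus strand) and chr2:128125788-128126037 (plus strand). Capitals mark matches to 3 motifs searched on both strands: GGAAA, the core bound by NFAT, TTCNNNGAA, bound by STAT proteins, and GTAAACA, bound by FOXO proteins.
Bcl2 promoter: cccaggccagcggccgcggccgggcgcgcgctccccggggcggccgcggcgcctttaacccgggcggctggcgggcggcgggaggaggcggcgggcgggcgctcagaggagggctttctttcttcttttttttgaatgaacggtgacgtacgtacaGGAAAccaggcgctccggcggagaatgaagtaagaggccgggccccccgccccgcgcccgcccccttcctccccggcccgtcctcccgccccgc
Pim2 promoter: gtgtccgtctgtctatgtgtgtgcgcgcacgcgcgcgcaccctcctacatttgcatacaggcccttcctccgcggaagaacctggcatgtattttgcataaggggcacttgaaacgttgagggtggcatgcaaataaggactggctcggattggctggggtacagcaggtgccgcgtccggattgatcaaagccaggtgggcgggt
Bcl2l11 promoter: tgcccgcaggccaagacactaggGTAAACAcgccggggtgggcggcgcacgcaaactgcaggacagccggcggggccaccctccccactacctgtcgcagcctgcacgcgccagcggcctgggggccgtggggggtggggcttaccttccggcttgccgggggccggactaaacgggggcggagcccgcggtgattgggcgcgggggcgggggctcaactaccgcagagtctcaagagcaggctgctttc

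For each gene 1 RefSeq start was used, and any start of Bcl2l11 inside the gene was not searched. Over the 250 bases upstream of these starts, GGAAA had 1 match at Bcl2, Bcl2a1b and Bcl2a1d each and 0 at Bcl2l11 and Pim2. It was in 55.6% of 32851 promoters searched for the same motifs, among which starts inside genes were not left out. GTAAACA had 1 match, at Bcl2l11 (3.17% of promoters), and TTCNNNGAA had 0 at the 5 genes (7.02% of promoters). GGAAA and TTCNNNGAA share letters and could overlap, but no window of the 5 genes held matches to more than 1 motif. A match describes these letters only.

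Bcl2a1b and Bcl2a1d are near-identical copies, so the first 120 coding bases are shown to mark where these differ. They follow 151 transcript bases in Bcl2a1b and 195 in Bcl2a1d, so only reads that reach that far cover the marked bases. The first 300 bases of the 2 transcripts were 73.5% identical, with 3 mismatches and 88 gap positions. Capitals mark the bases that differ, counted from 1 at the A of the start codon, with the base of Bcl2a1b first: G4T, T48C and A94C.
Bcl2a1b coding start: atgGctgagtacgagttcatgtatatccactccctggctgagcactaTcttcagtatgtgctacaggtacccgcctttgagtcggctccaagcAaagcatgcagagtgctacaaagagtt
Bcl2a1d coding start: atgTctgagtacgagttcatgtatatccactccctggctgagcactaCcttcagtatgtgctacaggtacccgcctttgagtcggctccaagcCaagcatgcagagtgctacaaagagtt

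Over the 519 coding bases the 2 copies differed at 6 positions, the 3 above and G312A, C381G and T490A, and were 98.8% identical. Of all 90-base stretches of the annotated transcripts, 36.1% of those of Bcl2a1b and 61.6% of those of Bcl2a1d were found unchanged in another measured copy (Bcl2a1a, Bcl2a1b or Bcl2a1d). The read length and how such reads were split are not stated in the sources used here, so the levels of each copy are uncertain.

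The files held 1551 anti-IL-2 and 1688 tacrolimus cells, and 1235 and 1475 had at least 200 detected genes. A CD4 gate (Cd4 without Cd8a and Cd8b1) held 278 anti-IL-2 cells (median 10394 UMIs) and 290 tacrolimus cells (median 11447.5 UMIs). A CD8 gate (Cd8a or Cd8b1 without Cd4) held 720 cells (median 14544) and 963 cells (median 13956). T-cell receptor complex genes such as Cd3e were not analysed here, so the label T cell was checked by Cd4, Cd8a and Cd8b1 alone. Cells with 2 or more B, plasma, erythroid or myeloid markers were left out, 101 and 79 cells. In the gates, B-cell markers (4 of 8 measured) were detected in 0 to 0.694% of cells and Ms4a1 in 0. Myeloid markers, mostly Cd68, were in 11.5% and 13.4% of CD4 cells and 38.2% and 31.9% of CD8 cells, and their part in the results was not tested. The libraries shared 4 cell barcodes. Anti-IL-2 values had the form of values batch-integrated onto the tacrolimus library, which no label states, and UMIs were recovered from them after an estimated shift was removed, as described under the processing.

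The level of a gene is the percentage of cells in which 1 or more UMIs of it were found, with an exact (Clopper-Pearson) 95% interval that covers counting error only. A lower share can mean fewer cells with the transcript or less of it in each cell, and these cannot be told apart. Since cells are not replicates and each treatment has 1 library, no p-value is given. A difference was counted by size alone, when the shares differed by at least 1.5-fold and 1 of them was at least 5%. Cells with at least 3 of 12 division genes detected (among them Mki67, Top2a and Cdk1) were called dividing, and cells with a UMI of Tcf7, the gene of TCF-1, a factor of resting and long-lived T cells, Tcf7-detected.

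The gates differed in make-up between the libraries, and these values stand beside every comparison of the libraries. Dividing cells were 23.02% of the CD4 gate under anti-IL-2 and 67.9% under tacrolimus, and 62.5% and 86.5% of the CD8 gate. Tcf7-detected cells were 71.2% and 15.2% of the CD4 gate and 34.4% and 3.01% of the CD8 gate.

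The first comparison asked how the survival genes differed between IL-2 blockade and calcineurin inhibition. Tacrolimus cells deeper than anti-IL-2 cells of the same depth rank were thinned to that depth, and shallower ones were left as they were. Median depths were then 10394 UMIs in both libraries in the CD4 gate. In the CD8 gate they were 14544 under anti-IL-2 and 13956 under tacrolimus. Bcl2 was in a larger share of anti-IL-2 cells in both gates, Pim2 in the CD4 gate, and Bcl2l11 in a smaller share in the CD4 gate. The A1 copies had ratios between 0.950 and 1.03 in both gates. In the CD4 gate 2 of the 5 members were higher and 1 lower by the size rule, where 11.6% of 917 genes at the minimum share were higher and 39.4% lower. In the CD8 gate 1 member was higher and 0 lower, where 8.66% of 935 genes were higher and 12.2% lower. The median log2 ratio of all these genes was -0.36 in the CD4 gate and -0.19 in the CD8 gate.

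Bcl2, the founding anti-apoptotic member, was detected in 56.1% of anti-IL-2 CD4 cells (50.1 to 62.0%) and 26.2% of tacrolimus CD4 cells (21.2 to 31.6%). The ratio was 2.15 (1.73 to 2.68), and the intervals of the shares did not overlap. The CD8 shares were 49.4% (45.7 to 53.2%) and 17.5% (15.1 to 20.03%), a ratio of 2.83 (2.42 to 3.31). This was the widest gap among the 5 members in either gate.

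Bcl2a1b, which encodes an A1 protein, was the most widely detected member. It was in 72.7% and 76.5% of CD4 cells, a ratio of 0.950 (0.861 to 1.05), and in 78.1% and 76.3% of CD8 cells, a ratio of 1.02 (0.970 to 1.08). At such tacrolimus shares a 1.5-fold higher share was not possible. Bcl2a1d, its near-identical copy, was in 54.0% and 56.3% of CD4 cells (ratio 0.959, 0.826 to 1.11) and 62.1% and 60.02% of CD8 cells (ratio 1.03, 0.957 to 1.12). For both copies the intervals of the ratio contained 1 in both gates.

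Bcl2l11 was detected in 14.0% of anti-IL-2 CD4 cells (10.2 to 18.7%) and 23.1% of tacrolimus CD4 cells (18.4 to 28.4%), a ratio of 0.608 (0.424 to 0.867). Its CD8 shares were 35.6% (32.0 to 39.2%) and 32.1% (29.2 to 35.2%), a ratio of 1.11 (0.967 to 1.26). The difference between the gates was not tested. On the log2 scale the CD4 ratio was -0.72, where the median of all genes of that gate was -0.36. Centred on that median it was -0.36, under 1.5-fold, as it also was as mean UMIs (-0.50).

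Pim2 was in 60.4% of anti-IL-2 CD4 cells (54.4 to 66.2%) and 34.8% of tacrolimus CD4 cells (29.3 to 40.6%), a ratio of 1.74 (1.45 to 2.10). CD8 cells held it in 42.5% (38.9 to 46.2%) and 31.6% (28.7 to 34.7%). That ratio of 1.34 (1.18 to 1.52) excluded 1 but did not reach 1.5-fold, and it passed 1.5-fold under 5 of 15 other settings.

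**Figure D1:**
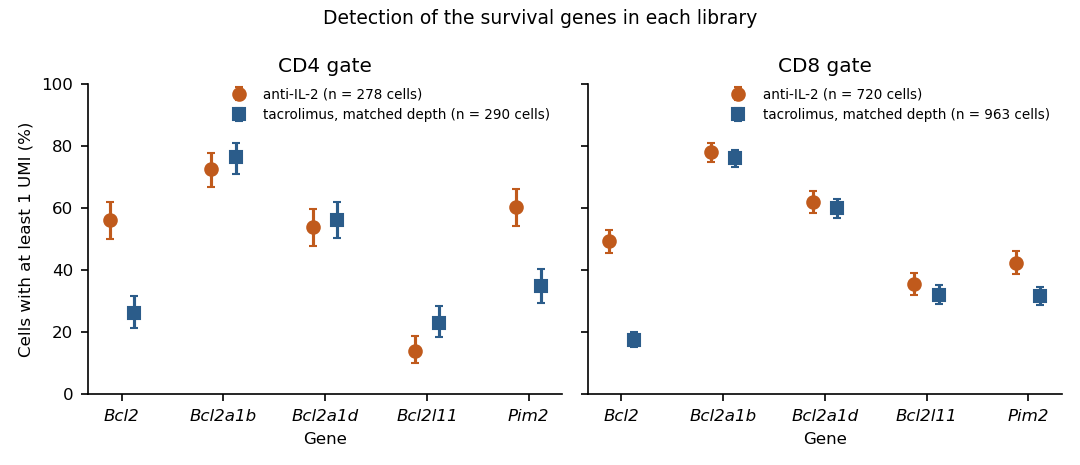
Share of cells with at least 1 UMI (vertical axis, percent) of each gene in the CD4 and CD8 gates. Circles are the anti-IL-2 library, squares the tacrolimus library with its deeper cells thinned to anti-IL-2 depths, and bars exact binomial 95% intervals of counting error. Bcl2 stands apart in both gates (56.1% against 26.2%, 49.4% against 17.5%), while Bcl2a1b and Bcl2a1d nearly coincide.

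In the tacrolimus library, whose UMIs were exact, most positive cells held few copies of the less detected members. Bcl2 had 0 UMIs in 82.5% of CD8 cells, 1 in 13.1%, 2 in 3.12% and 3 or more in 1.35%, with at most 8 in a cell. Bcl2a1b had 3 or more UMIs in 34.0% of CD8 cells and up to 24 in a cell. Pim2 and Bcl2l11 had 3 or more UMIs in 4.15% and 5.40% of CD8 cells.

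No cell type in the files is known to lack the BCL-2 family, so free RNA could not be set against a clean background. In cells with B, plasma or erythroid markers and none of Cd4, Cd8a and Cd8b1, 24 anti-IL-2 cells (median 8531 UMIs) and 18 tacrolimus cells (median 14691 UMIs), Tcf7 was in 0 cells, with upper limits of 14.2% and 18.5%. Bcl2a1b and Bcl2a1d were each in 4.17% and 11.1% of these cells, far under their shares in the gates. Bcl2 was in 4.17% and 22.2% (6.41 to 47.6%), so the 17.5% of tacrolimus CD8 cells with Bcl2 was not above the share in those cells. Pim2 was in 16.7% and 33.3%, and the tacrolimus shares of Pim2 in the gates, 34.8% and 31.6%, were near that value. Bcl2l11 was in 37.5% (9 of 24) and 9 of 18 of these cells, against at most 35.6% of a gate. B cells express these 3 genes themselves, and the part of free RNA in the gate shares was not tested.

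Because division and Tcf7 detection differed between the libraries, the comparison was repeated within cells of 1 state. Tacrolimus cells that were the shallower stayed so. Median UMIs of non-dividing CD8 cells were 11488 under anti-IL-2 and 8649 under tacrolimus. They were 18865 and 14922 in dividing and 16541 and 13917 in Tcf7-undetected CD8 cells. The part of depth in the subset ratios was not tested. As mean UMIs per 10000, the Bcl2 log2 ratios of the 4 CD8 subsets lay between 1.12 and 3.21. For Bcl2 in the CD8 gate the anti-IL-2 share was larger by the size rule in each of the 4 subsets, where 17.9% of genes were higher in non-dividing, 8.7% in dividing, 6.93% in Tcf7-undetected and 12.1% in Tcf7-detected cells. It was 64.4% against 13.8% of non-dividing cells, a ratio of 4.65 (3.06 to 7.27), and 40.4% against 17.9% of dividing cells, a ratio of 2.25 (1.88 to 2.71). Among Tcf7-undetected cells it was 36.7% against 16.3% (ratio 2.25, 1.87 to 2.72), and among Tcf7-detected cells 73.8% of 248 against 49.0% of 29 (ratio 1.504, 1.10 to 2.32). The gap between the libraries in Bcl2 of CD8 cells was thus seen within each division state and each Tcf7 class, read separately. With all UMIs of each cell, Bcl2 was in 65.2% of 92 anti-IL-2 and 66.7% of 21 tacrolimus dividing Tcf7-detected CD8 cells. Non-dividing cells were 156 of the 248 and 8 of the 29 Tcf7-detected cells, so the Tcf7-detected ratio also carries a difference in division make-up.

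In the CD4 gate Bcl2 ratios were 1.76 (1.33 to 2.40) in non-dividing, 1.54 (1.02 to 2.27) in dividing, 1.80 (1.25 to 2.55) in Tcf7-undetected and 1.17 (0.904 to 1.64) in Tcf7-detected cells. In these 4 subsets 15.2%, 9.05%, 7.27% and 11.4% of genes were higher. The last ratio, from 62.6% of 198 cells and 53.3% of 44, did not pass the size rule, and its interval contained 1. Differences between subsets were not tested. Median UMIs under anti-IL-2 and tacrolimus were 9677 and 8792 in non-dividing and 15292 and 13431 in dividing CD4 cells.

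The Pim2 ratios were near 1 in part of the subsets. Its CD4 ratio was 1.48 (1.19 to 1.90) in non-dividing and 1.42 (1.08 to 2.005) in Tcf7-detected cells, but 0.964 (0.625 to 1.43) in dividing and 1.04 (0.725 to 1.45) in Tcf7-undetected cells. Within none of the 4 CD4 subsets did Pim2 pass the size rule that it passed in the whole gate. In the CD8 gate the ratios were 1.65 (1.27 to 2.19) in non-dividing and 1.49 (1.01 to 2.46) in Tcf7-detected cells, and 1.15 (0.978 to 1.34) and 1.07 (0.910 to 1.25) in dividing and Tcf7-undetected cells.

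Bcl2l11 in the CD4 gate had ratios of 0.529 (0.329 to 0.860) in non-dividing, 0.643 (0.343 to 1.16) in dividing and 0.438 (0.227 to 0.812) in Tcf7-undetected cells, each lower by the size rule, where 25.7%, 13.7% and 23% of genes were lower. In Tcf7-detected CD4 cells it was 15.2% against 14.8%, a ratio of 1.02 (0.494 to 2.25), where 33.3% of genes were lower. Its CD8 ratios lay between 0.953 and 1.33, with 0 past the size rule, where 15.9% of genes were lower in non-dividing, 7.64% in dividing, 7.8% in Tcf7-undetected and 38.5% in Tcf7-detected cells. Those of Bcl2a1b lay between 0.914 and 1.15 and those of Bcl2a1d between 0.794 and 1.22 over both gates and all 4 subsets, with 0 past the size rule. Their high shares leave little room for a 1.5-fold difference. As mean UMIs, Bcl2a1b was lower under anti-IL-2 past 1.5-fold in dividing CD4 cells (log2 ratio -0.60) and Bcl2a1d in Tcf7-undetected CD4 cells (-0.66). In the other subsets neither copy passed 1.5-fold as mean UMIs. In non-dividing CD8 cells, where tacrolimus cells stayed shallower, the share ratios of Bcl2a1b and Bcl2a1d were 1.15 and 1.22. Their log2 ratios of mean UMIs there were -0.24 and -0.19.

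**Figure D2:**
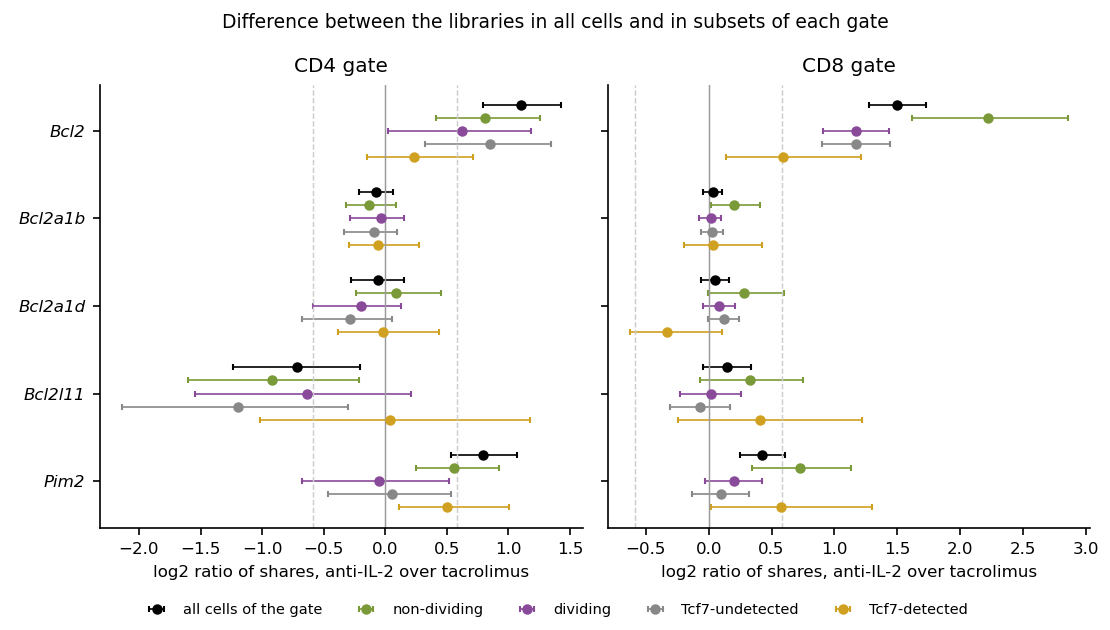
log2 ratio of the shares, anti-IL-2 over tacrolimus (horizontal axis), for each gene in all cells of a gate and in 4 subsets, which overlap since each cell is in 1 division and 1 Tcf7 class. Bars are 95% intervals of counting error and dashed lines mark 1.5-fold. Bcl2 lies right of 0 in every row, from 0.23 to 2.22, whereas Pim2 of dividing and Tcf7-undetected cells lies near 0.

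The second comparison asked within each library how Tcf7-detected cells differed from the rest, with every cell thinned to 5000 UMIs. Bcl2 and Pim2 were in a larger share of Tcf7-detected cells in both gates and both libraries. Ratios at this depth are read within a library, since simulated anti-IL-2 shares came out too low by 1.21 points for Bcl2 up to 6.87 points for Bcl2a1b. Higher by the size rule were 3 of 5 members in the CD4 and 3 in the CD8 gate of the anti-IL-2 library, where 20.3% and 13.3% of all genes tested were higher. In the tacrolimus library 2 members were higher in each gate, where 11% and 15% of genes were. No member was lower, where 34.1% and 30.6% of genes under anti-IL-2 and 35.2% and 13.2% under tacrolimus were, in the CD4 and the CD8 gate.

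Bcl2 was in 45.0% of Tcf7-detected and 22.3% of other CD4 cells under anti-IL-2, a ratio of 2.02 (1.32 to 3.21). Under tacrolimus the shares were 34.6% and 12.5%, a ratio of 2.77 (1.60 to 4.58). In the CD8 gate they were 46.2% and 16.2% under anti-IL-2, a ratio of 2.85 (2.22 to 3.67), and 20.02% and 6.52% under tacrolimus, a ratio of 3.07 (1.38 to 6.15). All 4 intervals excluded 1, although the last rests on 28 Tcf7-detected cells against 915.

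Pim2 was in 55.3% of Tcf7-detected and 21.9% of other CD4 cells under anti-IL-2 (ratio 2.53, 1.66 to 4.01), and in 35.7% and 18.9% under tacrolimus (ratio 1.89, 1.15 to 2.95). Its CD8 shares were 37.3% and 13.5% under anti-IL-2 (ratio 2.77, 2.08 to 3.68). Under tacrolimus they were 21.2% and 13.6%, and that ratio of 1.56 (0.728 to 2.97) contained 1 and passed the size rule in 1 of 6 other settings.

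Bcl2l11 was also in more Tcf7-detected CD8 cells under anti-IL-2, 24.3% against 13.5% (ratio 1.81, 1.31 to 2.49). In the anti-IL-2 CD4 gate its shares were 10.3% and 4.54%, a ratio of 2.28 whose interval was 0.802 to 6.69, and under tacrolimus the ratios were 0.674 (0.257 to 1.65) in CD4 and 1.12 (0.486 to 2.30) in CD8 cells. Bcl2a1b and Bcl2a1d had ratios between 0.949 and 1.41, with 0 past the size rule.

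The Tcf7-detected cells were less often dividing, so the split was repeated within a division state where both classes had at least 20 cells. In non-dividing and dividing CD8 cells of the anti-IL-2 library 19.5% and 11.8% of genes were then higher, and 2 and 1 members were. In non-dividing CD8 cells of the anti-IL-2 library Bcl2 was in 56.7% of Tcf7-detected and 26.1% of other cells (ratio 2.17, 1.56 to 3.09), and Pim2 in 48.8% and 20% (ratio 2.44, 1.65 to 3.70). In dividing CD8 cells of that library Bcl2 was in 27.7% and 12.96% (ratio 2.13, 1.37 to 3.26) and Pim2 in 17.0% and 11.4% (ratio 1.498, 0.861 to 2.54), just under the size rule. The Bcl2l11 ratio was 1.44 in both states, short of 1.5-fold. In non-dividing CD4 cells of that library the Bcl2 ratio was 1.26 (0.829 to 2.10) and the Pim2 ratio 1.72 (1.12 to 2.91), where 25.3% of genes were higher. The Bcl2l11 ratio there, 3.18, also passed the size rule, with an interval of 0.636 to 17.4. In dividing CD4 cells of that library (21 and 42 cells) the Bcl2 ratio was 2.93 (1.03 to 8.26) and the Pim2 ratio 1.88 (0.617 to 5.56), where 16.9% of genes were higher. In non-dividing CD4 cells under tacrolimus Bcl2 was in 41.5% and 18.3% (ratio 2.26, 1.15 to 4.39) and the Pim2 ratio was 1.71 (0.961 to 2.95), where 15.4% of genes were higher. Bcl2l11 was lower there by the size rule, with a ratio of 0.643 (0.217 to 1.78), where 29% of genes were lower. In dividing CD8 cells under tacrolimus Bcl2 was in 22.6% of 21 Tcf7-detected cells and 6.30% of 797 others (ratio 3.59, 1.51 to 7.42), where 13.6% of genes were higher.

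The third comparison set dividing against non-dividing cells within each library, again at 5000 UMIs a cell. Pim2 was in a smaller share of dividing cells in both gates of both libraries, and Bcl2 in 3 of these 4. Lower by the size rule were 4 members in the CD4 gate and 3 in the CD8 gate under anti-IL-2, where 22.6% and 12.6% of all genes tested were lower. Under tacrolimus 2 members were lower in each gate, where 11.2% and 9.44% of genes were. No member was higher, where 36.8% to 39.7% of genes were (37.9% and 39.2% in the CD4 and CD8 gates under tacrolimus). Dividing cells held more UMIs (medians of 18865 against 11488 in anti-IL-2 CD8 cells and 14922 against 8649 in tacrolimus CD8 cells), so these are shares per fixed number of UMIs.

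Bcl2 was in 17.7% of dividing and 45.1% of non-dividing CD4 cells under anti-IL-2 (ratio 0.393, 0.223 to 0.658), and in 11.2% and 25.5% under tacrolimus (ratio 0.439, 0.260 to 0.746). In anti-IL-2 CD8 cells it was in 16.0% and 44.0% (ratio 0.364, 0.281 to 0.469). In tacrolimus CD8 cells it was in 6.72% and 8.26%, a ratio of 0.813 (0.440 to 1.54). Bcl2 was therefore at a low share in both states of tacrolimus CD8 cells.

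Pim2 was in 15.5% and 55.3% of CD4 cells under anti-IL-2 (ratio 0.280, 0.153 to 0.485) and in 15.7% and 33.4% under tacrolimus (ratio 0.470, 0.305 to 0.730). Its CD8 ratios were 0.341 (0.253 to 0.457) under anti-IL-2, from 12.5% and 36.9%, and 0.541 (0.379 to 0.788) under tacrolimus, from 12.4% and 22.98%. All 4 intervals excluded 1.

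Bcl2l11 was in 12.3% of dividing and 25.2% of non-dividing CD8 cells under anti-IL-2 (ratio 0.489, 0.353 to 0.678) and in 14.4% and 24.5% under tacrolimus (ratio 0.586, 0.418 to 0.839). Its CD4 ratios, 0.643 (0.231 to 1.72) and 0.681 (0.377 to 1.25), had intervals that contained 1. Bcl2a1b had ratios of 0.664 (0.461 to 0.912) and 0.796 (0.649 to 0.989) in CD4 cells and 0.804 (0.686 to 0.945) and 0.877 (0.740 to 1.07) in CD8 cells, with the anti-IL-2 library first. Bcl2a1d had ratios between 0.756 and 0.991, with 0 past the size rule.

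The division split was also read within Tcf7-detected and within Tcf7-undetected anti-IL-2 CD8 cells, where 13.7% and 10.1% of genes were lower in dividing cells and 3 members were in each. Bcl2 was in 27.7% of dividing and 56.7% of non-dividing Tcf7-detected cells (ratio 0.488, 0.334 to 0.690) and in 12.96% and 26.1% of Tcf7-undetected cells (ratio 0.496, 0.330 to 0.758). The Pim2 ratios were 0.349 (0.212 to 0.556) and 0.569 (0.357 to 0.921), and those of Bcl2l11 0.564 (0.328 to 0.943) and 0.564 (0.354 to 0.913). In Tcf7-undetected tacrolimus CD8 cells the Bcl2 ratio was 0.785 (0.414 to 1.53), while Pim2, at 0.555 (0.383 to 0.823), and Bcl2l11, at 0.579 (0.410 to 0.836), were lower, where 9.83% of genes were. At 5000 UMIs a cell the lower shares of these genes in dividing anti-IL-2 CD8 cells were thus present with and without Tcf7. With all UMIs, shares of dividing against non-dividing Tcf7-detected cells were 65.2% and 78.8% (Bcl2), 45.7% and 68.6% (Pim2) and 44.6% and 46.2% (Bcl2l11). In Tcf7-undetected cells they were 34.1% and 44.7% (Bcl2), 33.5% and 32.5% (Pim2) and 28.8% and 35.1% (Bcl2l11).

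With all UMIs of each cell in place of 5000 the division split was narrower. Pim2 was then in 31.7% of dividing and 32.3% of non-dividing tacrolimus CD8 cells, and Bcl2a1d in 62.5% and 46.9%. In tacrolimus CD4 cells Bcl2 was in 24.4% of dividing and 35.5% of non-dividing cells and Pim2 in 32.5% and 47.3%. Under anti-IL-2 Pim2 was in 31.2% and 69.2% of CD4 cells and in 36% and 53.3% of CD8 cells. Bcl2 of anti-IL-2 cells stayed lower in dividing cells without thinning, with 37.5% against 61.7% in CD4 and 40.4% against 64.4% in CD8 cells.

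**Figure D3:**
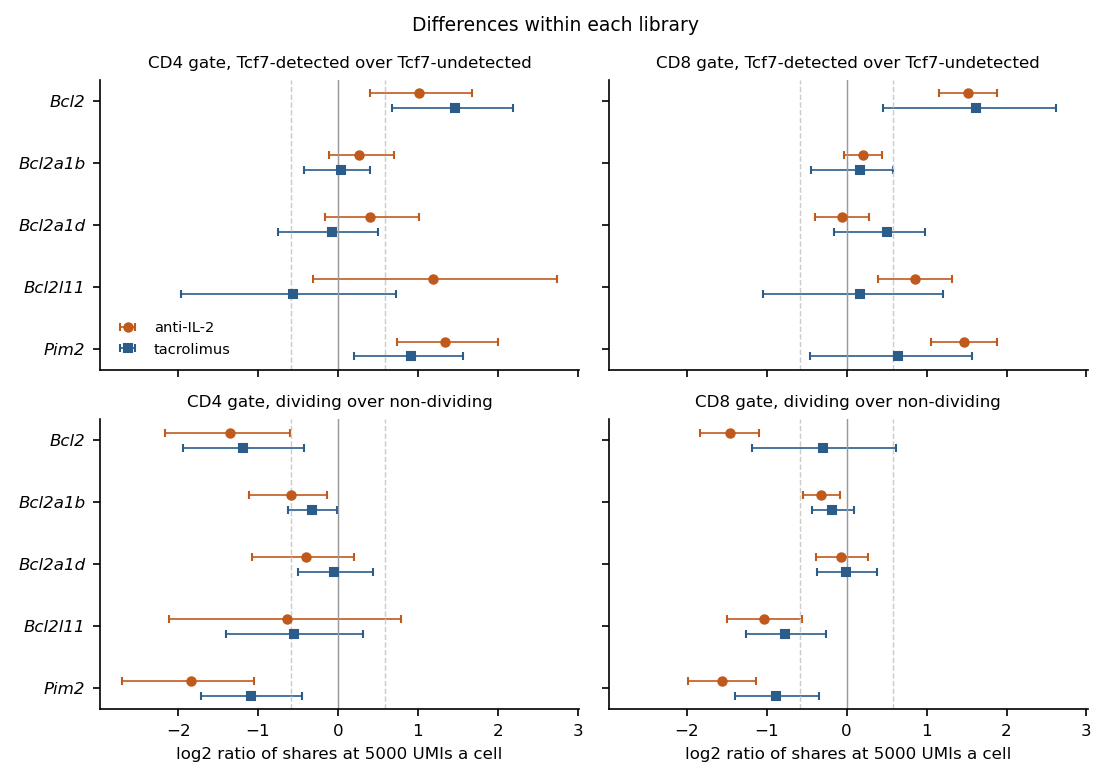
log2 ratio of the shares at 5000 UMIs a cell (horizontal axis) for Tcf7-detected over Tcf7-undetected cells (top) and dividing over non-dividing cells (bottom), in the CD4 gate (left) and CD8 gate (right). Circles are the anti-IL-2 and squares the tacrolimus library, bars 95% intervals of counting error and dashed lines 1.5-fold. Bcl2 and Pim2 lie right of 0 in the top panels and left of 0 in the bottom panels, and Bcl2 of tacrolimus CD8 cells at -0.30 is nearest to 0 among them.

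The shares were also read against the number of the 12 division genes detected, grouped as 0, 1 to 2, 3 to 6, 7 to 10 and 11 to 12. In anti-IL-2 CD8 cells Bcl2 was in 46.2%, 42.2%, 26.4%, 14.7% and 12.7% of cells of these groups at 5000 UMIs. Pim2 was in 41.0%, 33.5%, 11.3%, 14.1% and 11.9%. Pim2 was apart between cells with up to 2 and cells with 3 or more division genes, and Bcl2 took intermediate shares in cells with 3 to 6. In tacrolimus CD8 cells Bcl2 was in 9.55%, 7.37%, 7.82%, 6.16% and 6.70%, with intervals that all overlapped, and Pim2 in 24.5%, 21.96%, 15.8%, 12.1% and 11.6%. Bcl2l11 was in 29.1% of tacrolimus CD8 cells with 0 division genes and 12.5% of those with 11 to 12. Bcl2a1d showed no such order, with 39.3%, 30.2%, 34.1%, 32.3% and 34.2% in the same groups.

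**Figure D4:**
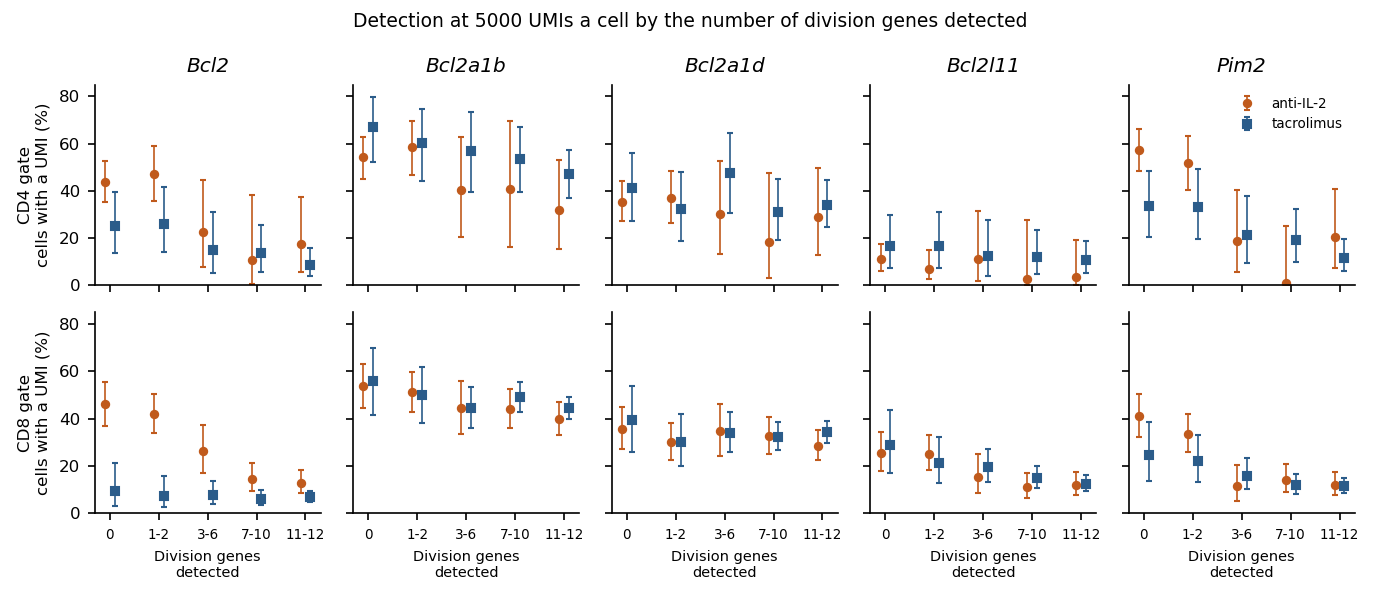
Share of cells with a UMI at 5000 UMIs a cell (vertical axis, percent) by the number of division genes detected (horizontal axis), for each gene in the CD4 gate (top) and CD8 gate (bottom). Circles are the anti-IL-2 and squares the tacrolimus library, and bars exact binomial 95% intervals. In simulation anti-IL-2 shares came out too low at this depth, so levels are read within a library. In CD8 cells Bcl2 goes from 46.2% to 12.7% under anti-IL-2 and lies between 6.16% and 9.55% under tacrolimus.

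Levels over the 8 combinations of gate, division state and Tcf7 detection are given with all UMIs of each cell, so median depths from 7794 to 21550 UMIs stand behind them. Tacrolimus strata with fewer than 20 cells, dividing Tcf7-detected CD4 cells (15 cells) and non-dividing Tcf7-detected CD8 cells (8 cells), are given as counts. Bcl2 was in 9 of these 15 and 2 of these 8 cells, Bcl2a1b in 13 and 7, Bcl2a1d in 13 and 5, Bcl2l11 in 2 and 2, and Pim2 in 6 and 3.

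Under anti-IL-2 Bcl2 was highest in non-dividing Tcf7-detected CD8 cells at 78.8% (71.6 to 84.97%, 156 cells). There followed dividing Tcf7-detected CD8 cells at 65.2%, non-dividing Tcf7-detected CD4 cells at 63.3% and dividing Tcf7-detected CD4 cells at 57.1%. The 4 Tcf7-undetected strata came after them, with 54.1% of non-dividing CD4, 44.7% of non-dividing CD8, 34.1% of dividing CD8 and 27.9% of dividing CD4 cells. Under tacrolimus the order began with dividing Tcf7-detected CD8 cells at 66.7% (43.0 to 85.4%, 21 cells) and non-dividing Tcf7-detected CD4 cells at 55.2%. The Tcf7-undetected strata held Bcl2 in 26.6% of non-dividing CD4, 21.4% of dividing CD4, 16.9% of dividing CD8 and 13.1% of non-dividing CD8 cells. In both libraries each pair of neighbours in the order had overlapping intervals, but the ends were apart. The order differed at 5000 UMIs a cell. Under anti-IL-2 non-dividing Tcf7-undetected CD4 cells (37.05%) then lay above dividing Tcf7-detected CD4 (31.6%) and CD8 cells (27.7%). Under tacrolimus non-dividing Tcf7-detected CD4 cells came first at 41.5%, and dividing Tcf7-detected CD8 cells, whose median depth was 19596 UMIs, were at 22.6%.

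Pim2 was highest in non-dividing Tcf7-detected cells, at 74.6% of CD4 (67.5 to 80.8%) and 68.6% of CD8 cells (60.7 to 75.8%) under anti-IL-2. The other 6 strata of that library lay between 27.9% and 45.7%, and the gap between 68.6% and 45.7% was the only 1 of 7 between neighbours whose intervals were apart. Under tacrolimus Pim2 was in 58.6% of non-dividing Tcf7-detected CD4 cells, 47.6% of dividing Tcf7-detected CD8 cells and 42.2% of non-dividing Tcf7-undetected CD4 cells. The remaining 3 strata lay between 31.3% and 32.0%.

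With all UMIs Bcl2l11 was in a larger share of every CD8 than of every CD4 stratum drawn of the same library. At 5000 UMIs this held under anti-IL-2 but not under tacrolimus, where non-dividing Tcf7-undetected CD4 cells (18.8%) lay above dividing Tcf7-detected (16.4%) and Tcf7-undetected CD8 cells (14.3%). Under anti-IL-2 the 4 CD8 strata held it in 28.8% to 46.2% of cells and the 4 CD4 strata in 5.41% to 16.3%, with the lowest value in 2 of 37 non-dividing Tcf7-undetected CD4 cells. Under tacrolimus the CD8 strata lay between 32.0% and 42.9% and the CD4 strata between 17.2% and 29.7%. Intervals of all neighbours overlapped. Bcl2a1b lay between 62.2% and 83.7% over the strata under anti-IL-2 and between 67.2% and 81.2% under tacrolimus. Bcl2a1d lay between 40.5% and 65.2% and between 45.9% and 81.0%, the last in 17 of 21 dividing Tcf7-detected CD8 cells. For both copies the intervals of all neighbours overlapped.

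**Figure D5:**
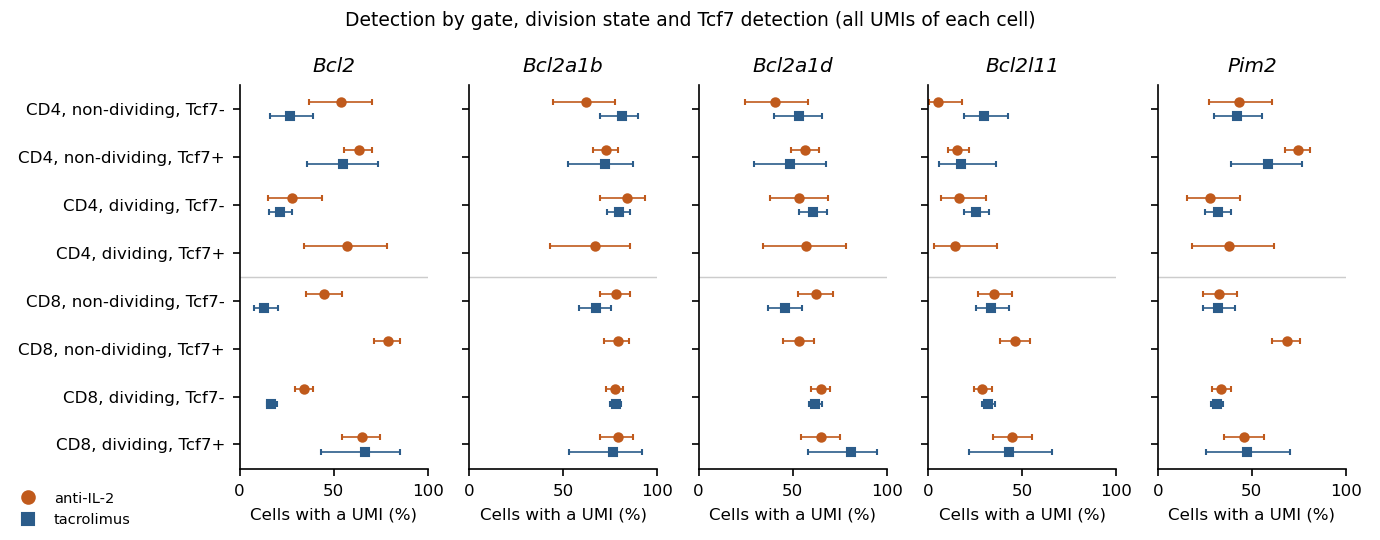
Share of cells with at least 1 UMI (horizontal axis, percent, all UMIs of each cell) by gate, division state and Tcf7 detection (rows). Circles are the anti-IL-2 and squares the tacrolimus library, bars exact binomial 95% intervals, and strata under 20 cells are left out. Bcl2 spans 27.9% to 78.8% under anti-IL-2, while Bcl2a1b lies between 62.2% and 83.7%.

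The members were also read together in single cells. Bcl2 and Pim2 were both detected in 36.7% of anti-IL-2 CD4 cells and 14.2% of tacrolimus CD4 cells, thinned as in the first comparison. The products of their shares were 33.9% and 9.09%. In CD8 cells both were in 25.6% and 7.33%, against products of 21.01% and 5.53%. Bcl2 and Bcl2l11 were both in 21.9% and 6.18% of CD8 cells (products 17.6% and 5.62%), and in 8.63% and 5.74% of CD4 cells (products 7.87% and 6.03%). Cells with Bcl2 and without Bcl2l11 were 47.5% of anti-IL-2 and 20.4% of tacrolimus CD4 cells. Bcl2a1b and Bcl2a1d were both in 53.6% and 49.6% of CD8 cells (products 48.5% and 45.8%). Cell depth is shared by the genes of a pair and was not removed here.

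Across the 14 strata of at least 20 cells, 8 of 1 library and 6 of the other, the log2 share (plus 1 percentage point) of Bcl2 went with that of Pim2 at Pearson's r = 0.79. Bcl2a1b and Bcl2a1d gave 0.56, and Bcl2 and Bcl2l11 gave -0.05. Shares at 5000 UMIs were used and the strata share their library. Simulated anti-IL-2 shares came out too low at that depth (by up to 6.87 points, for Bcl2a1b), so these values are descriptions. Of 933 genes ranked, the profile of Bcl2 was most like those of Nsg2 (0.95), Tnfsf8, which encodes the CD30 ligand (0.93), and Id3, a transcriptional regulator (0.92). With all UMIs of each cell these were 0.91, 0.92 and 0.93. That of Pim2 was most like Ctss, which encodes cathepsin S (0.94), Trp53inp1 (0.93) and Rnf213 (0.92), or 0.85, 0.85 and 0.68 with all UMIs.

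Bcl2l11 was most like Epcam (0.79), Ydjc (0.79) and Smim24 (0.78), with 0.84, 0.72 and 0.80 from all UMIs. Epcam was in at most 7.65% and Ydjc in at most 10.2% of cells of a stratum, so their profiles rest on few cells. Bcl2a1d was most like Wdr43 (0.81), Zfp593 (0.77) and Mrps18b (0.76), with 0.71, 0.87 and 0.85 from all UMIs. For Bcl2a1b the genes were H13 (0.86), Lztfl1 (0.85) and Sdf4 (0.83), but these were 0.58, -0.22 and 0.57 with all UMIs, so its likeness depended on the depth used.

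Il2ra, the alpha chain gene of the IL-2 receptor, marked a further split. In tacrolimus CD8 cells at 5000 UMIs Bcl2a1d was in 42.1% of 400 Il2ra-detected cells (37.2 to 47.1%) and 27.4% of 543 others (23.7 to 31.4%), and Bcl2 in 7.88% and 6.22%. In anti-IL-2 CD8 cells Bcl2 was in 12.7% of 110 Il2ra-detected cells and 29.4% of 582 others. Before thinning, Il2ra-detected CD8 cells were deeper than the others, with medians of 25765 against 13834 UMIs under anti-IL-2 and 17990.5 against 12184 under tacrolimus. Division state was not held equal in this split, and its part in these differences was not tested. In anti-IL-2 CD4 cells with Cxcr5, the follicular homing receptor gene, Pim2 was in 50.6% of 85 cells against 44.1% of 188 others, and Bcl2 in 38.2% against 39.1%.

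Of the other genes of the pathway few were among the 2000. Of 8 anti-apoptotic genes listed 4 were measured, and the fourth, Bcl2a1a, was in 0.719% and 1.29% of CD4 and 0.417% and 1.03% of CD8 cells. Bcl2l11 was the 1 measured of 8 BH3-only genes and Pim2 the 1 measured of 3 PIM kinases. Of 3 pore formers 1 was measured, Bok, in at most 0.415% of cells. Mcl1, Bcl2l1, Bax and Bak1 were not analysed here. Of 11 caspases and inhibitors 2 were measured, and Casp4, an inflammatory caspase gene, was higher under anti-IL-2 in both gates (ratios 1.64, 1.28 to 2.11, and 1.92, 1.43 to 2.59). Casp1 did not pass the size rule. Both measured death receptor and ligand genes, Tnf and Tnfrsf1a, passed it in neither gate.

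Counts of the next lists stand beside the shares of all genes, 11.6% higher and 39.4% lower in the CD4 gate and 8.66% higher and 12.2% lower in the CD8 gate. Of 10 cytokine receptor and STAT5 feedback genes 5 were measured. In the CD4 gate 1 was higher under anti-IL-2 (Socs1, ratio 1.60), 2 were lower (Il2ra, 0.321, and Socs2, 0.123) and 2 were neither, with a list median log2 ratio of -0.30, so that the lower share of the list was close to that of all genes. In the CD8 gate 4 were lower (Il2ra, 0.382, Socs2, 0.141, Cish, 0.356, and the IL-7 receptor gene Il7r, 0.648) and 1 was neither, with a median of -1.39. Bcl2 was higher in the library in which Il2ra, Socs2 and, in CD8 cells, Cish and Il7r were lower. Socs1 went the other way, with a CD8 ratio of 1.36 (1.16 to 1.60) under the size rule. A link of Bcl2 to these genes was not tested. Of 4 measured FOXO1 and resting T-cell genes (9 listed) 3 were higher in each gate, among them Tcf7 (4.87 and 11.6) and Ccr7 (5.11 and 5.82), and Il7r was lower in the CD8 gate, with list medians of 1.90 and 2.34. Of 3 measured NF-kB targets (10 listed) 1, Tnfaip3 in the CD8 gate (1.52), was higher. Of 8 TCR-signal genes, all measured, 6 reached the minimum share in the CD4 gate, where Egr2 was higher (4.12) and Nr4a1 lower (0.598), and 5 in the CD8 gate, where Egr1 (2.08) and Nr4a2 (1.60) were higher.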

How the data were processed

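Both libraries came from spleen cells run through a droplet-based single-cell 5′ kit, with NextSeq500 reads (per the labels' protocols). Cell Ranger 3.1.0, Seurat (no version) and mm10 are named in the submitters' processing notes. The sources used here do not say how cells were filtered. The authors deposited natural log values of 2000 genes, scaled per cell. Those of the tacrolimus library gave whole UMIs at a scale of 50000. Of the anti-IL-2 values, 13.9% lay under 0 and 42.0% were 0, a mark of batch integration onto the other library. A further 308 anti-IL-2 columns repeated beside the tacrolimus ones were skipped.

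Anti-IL-2 UMIs were recovered by estimating the integration shift from each cell's values and removing it, with detection called at 0.5 of the level of 1 UMI. The method was tested on simulated data, tacrolimus cells integrated with Seurat 5.3.0 at default settings. How the deposited values were integrated is not stated, so how closely the simulation matches them is not known. Its settings were chosen over 6 simulated pairs, and a last untouched pair (536 query cells, 2000 genes) gave 99.7% of detection calls right, 99.3% to 100.0% for the 5 genes and 98.1% for Tcf7. The largest error of a member's share was 0.746 percentage points. Fitted totals of the simulated cells had a median of 1.11 times the true ones, and 90.5% were within 1.25-fold. In real anti-IL-2 cells whose totals could also be read directly, the median ratio of fitted to read totals was 0.997 (192 cells, read from 2 or more values) and 0.992 (190 cells, read from 1 value). The log2 ratio between the simulated libraries of Bcl2 was 0.78 where 0.83 was true. At a fixed depth of 5000 UMIs the recovered shares of the 5 genes were lower than the true ones, by 1.21 (Bcl2) to 6.87 (Bcl2a1b) points. Ratios of the splits were off by at most 0.145 on the log2 scale for these 5 genes. Over 809 genes the 95th percentile of that error was 0.358 for the Tcf7 split, so the shares of all genes past the size rule are less exact. A refit of 25 genes whose values lay near the detection level, Tcf7 among them, was added after real values were seen.

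Cells needed 200 detected genes, and cells with 2 or more markers of another lineage were left out. Doublets were treated only by leaving out such cells and those with both Cd4 and Cd8a or Cd8b1 (78 anti-IL-2 and 90 tacrolimus cells). Cells with neither (58 and 53) were in no gate. Tacrolimus shares compared with anti-IL-2 shares were expected shares after thinning. Each tacrolimus cell deeper than the same depth quantile of the anti-IL-2 gate or subset was thinned to it. Shallower tacrolimus cells and all anti-IL-2 cells kept their depth, so depths stayed unequal where tacrolimus cells were the shallower. Splits within a library used 5000 UMIs a cell and left out shallower cells. Ratios carry score intervals at the 95% level, which cover counting error only. With 1 library per treatment no test was made. Genes named were the 5 members, genes of the pathway lists past 1.5-fold (at most 4 a list) and the 3 genes of the likest profile per member, with single genes named beside small counts chosen after their values were seen. Values of some single genes are not reported here. Members and lists were chosen with earlier results of these data known. Work was done in Python 3.11.15 with numpy 2.4.6, pandas 2.3.3, scipy 1.17.1, statsmodels 0.14.6, scikit-learn 1.9.0 and matplotlib 3.10.9, and in R 4.3.3.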

Additional observations from a re-analysis of the deposited data

Results flagged for a closer look

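The Bcl2l11 ratios of the libraries had opposite signs in the gates. The log2 ratio of shares, anti-IL-2 over tacrolimus, was -0.72 in the CD4 gate and 0.15 in the CD8 gate. The CD8 ratio of 1.11 (0.967 to 1.26) contained 1 and did not pass the size rule, and the difference between the gates was not tested.

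The Bcl2l11 ratios of the CD4 gate also had opposite signs in the libraries when Tcf7-detected cells were set against the others. The log2 ratio at 5000 UMIs was 1.19 under anti-IL-2 and -0.57 under tacrolimus. With all UMIs of each cell the shares were 15.2% and 11.2% under anti-IL-2 and 15.9% and 26.4% under tacrolimus, and the intervals of both ratios at 5000 UMIs contained 1 (0.802 to 6.69 and 0.257 to 1.65). This difference was not tested either.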

How the results depend on the processing

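No paired analysis was possible because there was 1 library per treatment and no test. Bcl2 kept its call between the libraries in the CD8 gate under 15 of 15 alternatives (log2 ratio 0.59 to 2.22) and in the CD4 gate under 13 of 14 (0.23 to 1.56). Pim2 kept its CD4 call under 10 of 14 (-0.053 to 1.37) and Bcl2l11 under 9 of 14 (-1.19 to 0.034), and Pim2 in the CD8 gate stayed under 1.5-fold in 10 of 15 (0.10 to 0.93). The cause of each shift below was not tested. Tcf7-detected tacrolimus values rest on 44 CD4 and 29 CD8 cells.

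Log2 ratios between the libraries moved as follows. In dividing cells they were 0.62 (Bcl2) and -0.053 (Pim2, reversed) in CD4 and 1.17 (Bcl2) and 0.20 (Pim2) in CD8 cells. In non-dividing CD8 cells they were 2.22 (Bcl2), 0.20 (Bcl2a1b), 0.28 (Bcl2a1d) and 0.72 (Pim2). In Tcf7-undetected cells they were -0.28 (Bcl2a1d) and 0.057 (Pim2) in CD4 and 1.17 (Bcl2), -0.069 (Bcl2l11) and 0.10 (Pim2) in CD8 cells. In Tcf7-detected cells, an alternative chosen after seeing the data, they were 0.23 (Bcl2), 0.034 (Bcl2l11, reversed) and 0.51 (Pim2) in CD4 and 0.59 (Bcl2), -0.33 (Bcl2a1d) and 0.41 (Bcl2l11) in CD8 cells. With both libraries thinned to 5000 UMIs they were 1.10 (Pim2) in CD4 and 1.95 (Bcl2), -0.090 (Bcl2a1d) and 0.66 (Pim2) in CD8 cells. In anti-IL-2 cells whose totals were read directly (65 CD4 and 137 CD8 cells) they were 1.44 (Bcl2), 0.16 (Bcl2a1b) and 1.18 (Pim2) in CD4 and 2.04 (Bcl2), 0.28 (Bcl2a1b), 0.52 (Bcl2l11) and 0.93 (Pim2) in CD8 cells. Centred on the median of all genes they were 1.46 (Bcl2), 0.28 (Bcl2a1b), 0.30 (Bcl2a1d) and 1.15 (Pim2) in CD4 and 0.22 (Bcl2a1b), 0.24 (Bcl2a1d) and 0.62 (Pim2) in CD8 cells. As mean UMIs per 10000 they were 1.56 (Bcl2) and 1.37 (Pim2) in CD4 and 2.10 (Bcl2), -0.11 (Bcl2a1b), -0.16 (Bcl2a1d) and 0.64 (Pim2) in CD8 cells. With the integration shift left in, Bcl2 of CD8 cells was 1.19. Bcl2l11 of CD4 cells fell short of 1.5-fold in Tcf7-detected cells (above), centred on the median (-0.36), as mean UMIs (-0.50), with the shift left in (-0.37) and in cells with totals read directly (-0.25). Pim2 of CD4 cells fell short in all 4 subsets (0.56 in non-dividing cells, the others above).

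For the Tcf7 split, 1 member and not 2 was higher in tacrolimus CD8 cells when the gate needed both Cd8a and Cd8b1, with no minimum of detected genes, with no thinning and, both chosen after seeing the data, with myeloid markers without Cd68 and Itgam and with averaging over depth bins. In tacrolimus CD4 cells 1 member was lower and not 0 with no thinning, in non-dividing cells and with depth bins, where 1 and not 2 was higher. For the division split, with no thinning 2 members and not 4 were lower in anti-IL-2 CD4, 0 and not 2 in tacrolimus CD4, 1 and not 3 in anti-IL-2 CD8 and 0 and not 2 in tacrolimus CD8 cells, and the log2 ratios of Bcl2a1b and Bcl2l11 in anti-IL-2 CD4 cells reversed to 0.14 and 0.21. Depth bins gave 2 lower in anti-IL-2 CD4 cells (Bcl2l11 reversed to 0.052), 1 in anti-IL-2 CD8 and 1 in tacrolimus CD8 cells. In Tcf7-undetected anti-IL-2 CD4 cells, also chosen after seeing the data, 1 member was higher and 2 lower (Bcl2l11 reversed to 0.70). Mean UMIs gave 4 lower in tacrolimus CD4 cells, and the integration shift left in gave 2 lower in anti-IL-2 CD4 cells. For the Tcf7 split of non-dividing tacrolimus CD4 cells, 15.4% of all genes were higher and 29% lower. For the division split of Tcf7-undetected anti-IL-2 CD4 cells, 38.4% were higher and 18.7% lower. Shares of all genes under the other settings are not given here, so those counts show only how calls of members moved.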

Other observations

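Cxcr5, the gene of a homing receptor for B-cell follicles, was detected in 65 anti-IL-2 CD8 cells of at least 5000 UMIs and in 0 such tacrolimus CD8 cells of 943. At 5000 UMIs Bcl2 was in 51.1% of these 65 cells (38.4 to 63.7%) and 24.2% of the 627 others (20.9 to 27.7%). Pim2 was in 43.1% (30.9 to 55.99%) and 19.7% (16.6 to 22.98%). Bcl2a1d, in 33.7% and 31.4%, had overlapping intervals. Division state and Tcf7 class were not held equal in this split, and their part in the differences was not tested. At this depth Bcl2 was in 56.7% of non-dividing Tcf7-detected and 12.96% of dividing Tcf7-undetected anti-IL-2 CD8 cells.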
